A study of Mus musculus with 6 samples.

Results

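The iron uptake, storage and export genes are a set of 10 genes that bring iron into the cell, store it, release it or sense it, together with Gpx4, which removes the lipid peroxides that iron can help to form. They were chosen by gene symbol, with earlier results of these data known, and all 10 were found among the 16880 genes listed. All 10 passed the filter on low counts. RNA was sequenced from 6 libraries of ATDC5 cells, a mouse chondrogenic cell line, kept in DMEM with fetal bovine serum. That name is from the labels, while the study's text speaks of mouse chondrocytes. In 3 libraries (IL) the cells had received IL-1β, an inflammatory cytokine, at 10 ng/mL. In the other 3 (ILN) they had received the same IL-1β with NP-G2-044 at 10 μM, a small molecule inhibitor of the actin-bundling protein FSCN1. By the study's methods exposure lasted 24 h. Titles of the inhibitor-treated samples name NP-G2-044, whereas their treatment field names NP-G2-047. Every comparison is of ILN with IL, and cells without IL-1β were not analysed here.

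Cells take up most iron bound to transferrin, reduce it in the endosome and carry it into the cytosol, where ferritin stores what is not used and ferroportin exports what is not needed. Iron regulatory proteins adjust this balance after transcription by binding a short RNA hairpin, the iron-responsive element. Bound to the untranslated region (UTR) upstream of the coding sequence, they block translation, and bound downstream of it in the transferrin receptor mRNA, they protect the message from decay. Iron loading of joints, as in haemophilic arthropathy and haemochromatosis, is known to accompany cartilage damage.

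The iron-responsive elements of the set are shown because both ferritin genes, the exporter gene and some of the uptake genes hold one, and mRNA level is only part of what they control. A search of coding transcripts in GENCODE vM21 (GRCm38, the assembly that mm10 names) looked for the loop letters CAGTGN, with the last letter not G, flanked by a stem of 5 pairs (G-U pairs counted) with an unpaired C below it, on the transcript strand. It found such a hairpin in the 5′ UTR of Fth1, Ftl1 and Slc40a1 and at 4 places in the 3′ UTR of Tfrc. With 1 unpaired base allowed on the downstream side of the stem, it also found it in the 3′ UTR of Slc11a2. In the lines below the 6 loop letters are in capitals.
Fth1, 5′ UTR, exon 1: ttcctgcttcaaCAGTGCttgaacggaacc
Ftl1, 5′ UTR, exon 1: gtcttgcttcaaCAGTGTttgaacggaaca
Slc40a1, 5′ UTR, exon 1: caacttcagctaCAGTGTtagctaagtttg
Tfrc, 3′ UTR, exon 19: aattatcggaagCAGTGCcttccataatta
Tfrc, 3′ UTR, exon 19: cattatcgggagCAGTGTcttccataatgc
Tfrc, 3′ UTR, exon 19: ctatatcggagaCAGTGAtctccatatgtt
Tfrc, 3′ UTR, exon 19: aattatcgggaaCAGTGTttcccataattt
Slc11a2, 3′ UTR, exon 16: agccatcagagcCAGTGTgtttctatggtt

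These sites lie at chr19:9982732-9982761 on the plus strand (Fth1), chr7:45459778-45459807 on the minus strand (Ftl1), chr1:45925464-45925493 on the minus strand (Slc40a1) and chr15:100395152-100395181 on the minus strand (Slc11a2). The 4 sites of Tfrc are at chr16:32631219-32631248, chr16:32631598-32631627, chr16:32631663-32631692 and chr16:32631710-32631739 on the plus strand. The loops of Fth1, Ftl1 and Slc40a1 begin at base 99, 90 and 102 of the 5′ UTR. Among all genes with an annotated 5′ UTR, 23 of 20916 (0.11%) held the pattern there. In 3′ UTRs it was held by 100 of 21045 genes (0.475%). Counted apart, sites that need the unpaired base were held by 162 (0.77%), and a gene can be in both counts. The hairpin was not matched in the UTRs of Aco1, Ireb2, Ncoa4, Gpx4 or Slc39a14. A match describes letters in an annotated transcript and is not a measured binding site.

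The libraries held 16615824 to 17735860 estimated reads each, and 14155 to 14383 genes had at least 1 read. For genes with 60 reads or more, squared differences within a group exceeded those of random sampling 1.54 to 2.39 times, and those between groups 133.1 to 135.8 times. The study's methods call the libraries of a group biological replicates, but the labels do not say whether they came from separate cultures. The p-values therefore measure the spread between these libraries, which may be technical. Of the cartilage markers, Sox9 had 245 to 508 reads per library, whereas Col2a1 had at most 12, Matn1 had 0, and Acan, Hapln1 and Col9a1 are not listed, so several defining markers of the labelled chondrogenic cell type were near or at 0. Of 7 macrophage markers 5 are listed, and their summed level was 23.8 to 24.6 TPM in IL and 128.6 to 140 TPM in ILN. Of these 5, Ptprc had 0 reads in every library, Lyz2 had at most 4 and Csf1r at most 12, while Cd68, which encodes a lysosomal membrane glycoprotein, went from 110 to 142 reads per library to 1352 to 1501. Cd14 stood at 10.3 to 13.3 TPM in IL and at 4.5 to 5.09 TPM in ILN. For 5 listed erythroid markers the summed level was at most 1.1 TPM in any library, with Gata1 at 0 reads. The sums of the endothelial and adipocyte markers were at most 0.55 TPM. The 6 fibroblast markers, nearly all of whose sum was Col1a2, summed to 1101 to 1148 TPM in IL and to 336 to 350 TPM in ILN, but Pdgfra of this list went from 2.16 to 2.69 TPM up to 8.49 to 9.03 TPM. The 8 listed cartilage markers summed to 21.9 to 22.7 TPM in IL and 17.1 to 17.6 TPM in ILN. Among those tested only Sox9 rose, from 5.94 to 7.21 TPM up to 11.3 to 11.4 TPM. Sox5 went from 10.2 to 10.3 TPM down to 2.03 to 2.52 TPM, and Col11a2 from 4.75 to 5.18 TPM down to 3.23 to 3.59 TPM. Col2a1 also fell, from 0.2 to 0.24 TPM down to 0.02 to 0.06 TPM, while Sox6 overlapped between the groups. The part of these shifts in the changes of the iron genes was not tested.

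In ILN cells the mRNAs of both ferritin subunits, of the endosomal iron transporter Slc11a2, of the ferritin autophagy receptor Ncoa4 and of Gpx4 were higher than in IL cells. Those of the transferrin receptor Tfrc, of the transporter Slc39a14, of both iron regulatory proteins and of the exporter Slc40a1 were lower. In bulk RNA, a change in the number of cells of a kind and a change in RNA per cell cannot be told apart. Fold changes below are ILN over IL on the log2 scale, ± the standard error (SE), with p from edgeR (quasi-likelihood) adjusted over 11983 genes after Benjamini and Hochberg. With this adjusted p under 0.05, 5 of the 10 genes were higher and 5 lower. That threshold is passed by 80% of all genes tested, 40.2% higher and 39.8% lower, so a call at this threshold says little about iron genes in particular. With the study's second cutoff, a log2 fold change above 1 in size, 2 of the 10 genes were called, Ftl1 higher and Slc40a1 lower, where 16.6% of all genes tested were called (6.48% higher and 10.1% lower). The median log2 fold change was 0.10 over the 10 genes and 0.0018 over all genes tested. For each of the 10 genes the TPM values of the groups did not overlap, as was so for 79.4% of all genes tested.

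**Figure D1:**
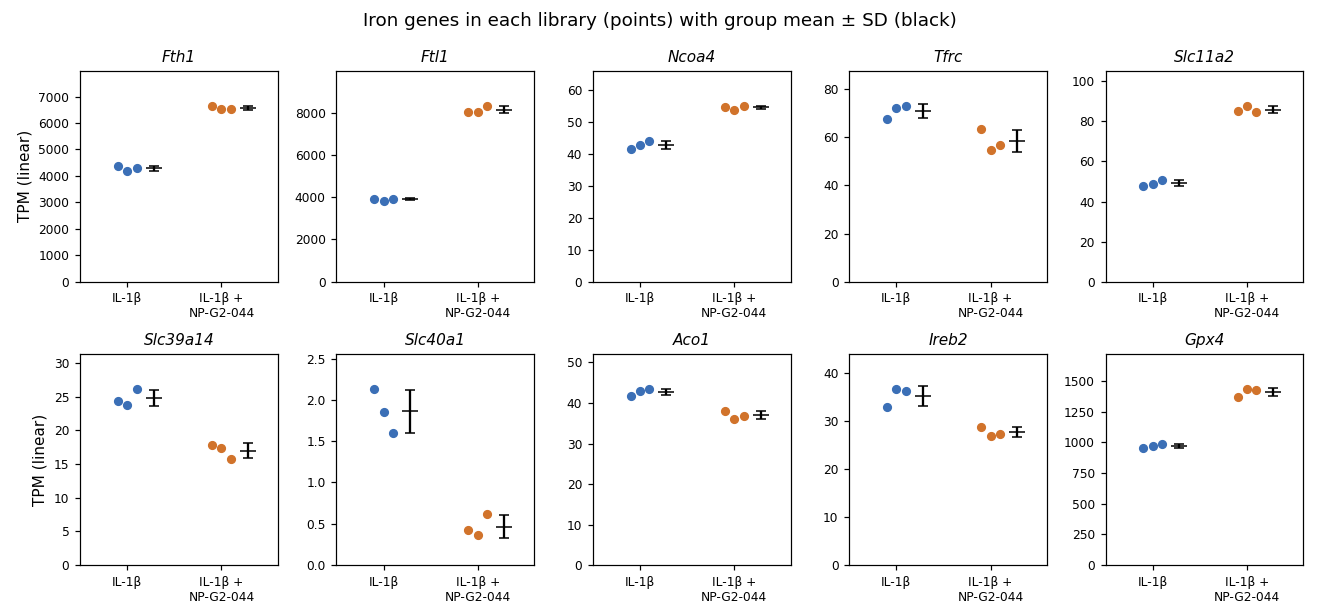
TPM of each iron gene (vertical axis, linear, from 0, a scale of its own in each panel) in the 3 IL libraries (blue) and the 3 ILN libraries (orange), with the group mean ± SD in black. In all 10 panels the points of the groups are apart, with Ftl1 going from 3843 to 3935 TPM up to 8027 to 8315 TPM and Slc40a1 from 1.6 to 2.13 TPM down to 0.36 to 0.62 TPM.

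Ferritin is a hollow shell of heavy and light subunits. Fth1 (Entrez gene 14319) encodes the heavy subunit, which oxidises ferrous iron so that it can be stored. Its level was 4365, 4191 and 4311 TPM in the IL libraries and 6645, 6536 and 6528 TPM in the ILN libraries. All 3 ILN libraries were above all 3 others, and the libraries of a group lay close together. The log2 fold change was 0.64 ± 0.0264 (SE, edgeR adjusted p = 2.47e-28), a 1.56-fold rise that stayed below the cutoff on size.

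Ftl1 (Entrez gene 14325) encodes the light subunit, which helps the iron core to form inside the shell. It stood at 3899, 3843 and 3935 TPM in IL and at 8034, 8027 and 8315 TPM in ILN. Thus its lowest ILN library was far above its highest IL library. The log2 fold change was 1.09 ± 0.0265 (SE, edgeR adjusted p = 7.93e-39), or 2.12-fold, and it was past both cutoffs. Ftl1 was the only one of the 10 genes with estimated counts that were not whole, in all 6 libraries, as a counter that divides reads among features leaves. GENCODE vM21 names 3 Ftl pseudogenes, and exons of Gm10252 on the opposite strand overlap those of Ftl1 over 355 bases. On the same strand, Gm22133 overlaps exons of Ftl1 over 109 bases. The sources used here do not give a strand setting, and the part of these neighbours in the Ftl1 value was not tested. Pseudogenes are also named for Fth1 (2) and Gpx4 (1), whose counts were whole.

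In TPM, the order of the subunit mRNAs turned over between the groups. This order rests on the level of Ftl1, and the part of its divided reads and neighbours, given above, was not tested. Fth1 was the higher of the pair in every IL library, and Ftl1 was the higher in every ILN library. The ratio of Ftl1 to Fth1 in TPM, which is per gene length, was 0.893, 0.917 and 0.913 in IL, with a mean of 0.908 ± 0.0126 (SD, n = 3). In ILN it was 1.21, 1.23 and 1.27, with a mean of 1.24 ± 0.0333 (SD, n = 3). The groups did not overlap, and the exact two-sided permutation test gave p = 0.1, the smallest p that 3 against 3 libraries allow. Both subunits together made up 0.818% ± 0.0128 of all TPM in IL and 1.47% ± 0.014 in ILN (SD, n = 3 each, exact permutation p = 0.1). By mean TPM among 16880 genes, Fth1 moved from place 27 to place 16 and Ftl1 from place 31 to place 7.

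**Figure D2:**
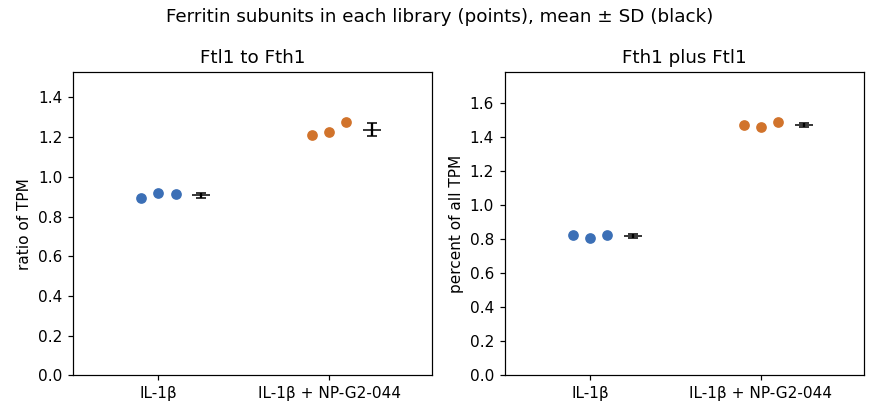
Left, the ratio of Ftl1 to Fth1 in TPM, and right, the sum of both in percent of all TPM, for each library (points) with the group mean ± SD in black, both axes linear from 0. The ratio was below 1 in all 3 IL libraries (0.893 to 0.917) and above 1 in all 3 ILN libraries (1.21 to 1.27).

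Ncoa4 (Entrez gene 27057) encodes the receptor that hands ferritin to autophagy, by which stored iron is released in the lysosome. It was at 41.6, 42.7 and 44.1 TPM in IL and at 54.8, 53.9 and 55.1 TPM in ILN. The mRNA of the receptor rose, as did those of both ferritin subunits, with a log2 fold change of 0.38 ± 0.0355 (SE, edgeR adjusted p = 6.68e-14). The size of its change was larger than that of 48.4% of all genes tested.

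Of the genes of iron entry, Tfrc and Slc39a14 fell and Slc11a2 rose. Tfrc (Entrez gene 22042) encodes transferrin receptor 1, which binds iron-loaded transferrin at the cell surface. Its values were 67.4, 72.2 and 72.9 TPM in the IL libraries and 63.4, 54.6 and 56.6 TPM in the ILN libraries. The groups lay close without overlapping, and the log2 fold change was −0.25 ± 0.0408 (SE, edgeR adjusted p = 1.24e-05). Transcript stability, on which the 4 hairpins above are known to act, was not measured.

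Slc11a2 (Entrez gene 18174) encodes DMT1, which carries ferrous iron out of the endosome after transferrin has released it. It was at 47.7, 49 and 51 TPM in IL and at 85.2, 87.6 and 84.6 TPM in ILN. All libraries with the inhibitor were clearly above those without it. With a log2 fold change of 0.88 ± 0.032 (SE, edgeR adjusted p = 8.65e-31), or 1.84-fold, it was the largest rise after that of Ftl1. Slc11a2 has transcripts with and without the hairpin, and the table gives their sum, so their proportions were not analysed here. Exons of Gm5475 on the opposite strand overlap those of Slc11a2 over 402 bases.

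Slc39a14 (Entrez gene 213053) encodes ZIP14, a metal transporter that takes up iron not bound to transferrin, and also zinc and manganese. It had 24.4, 23.8 and 26.1 TPM in IL and 17.9, 17.3 and 15.8 TPM in ILN. All ILN libraries were lower, with a log2 fold change of −0.52 ± 0.045 (SE, edgeR adjusted p = 7.81e-15). The genes of entry therefore did not move as a block, and the order of Tfrc and Slc11a2 was exchanged. Tfrc was above Slc11a2 in each IL library and below it in each ILN library.

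Slc40a1 (Entrez gene 53945) encodes ferroportin, the exporter through which cells release iron. It was the lowest of the 10 genes in both groups, at 2.13, 1.85 and 1.6 TPM in IL and at 0.42, 0.36 and 0.62 TPM in ILN. These levels rest on 71, 60 and 53 reads against 14, 13 and 22 reads, and the read counts of the groups did not overlap. The log2 fold change of −1.97 ± 0.217 (SE, edgeR adjusted p = 9.25e-12) was the largest of the set in either direction and past both cutoffs. The ratio of pooled reads, IL over ILN and scaled by the read totals, was 3.95 with an exact 95% binomial interval (Clopper-Pearson) from 2.87 to 5.53, which covers counting error only. With limma on log2(TPM + 1) the change was −0.96, short of the cutoff on size. Of all genes tested, 94.7% changed by less.

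Aco1 and Ireb2 encode iron regulatory proteins 1 and 2, the proteins that bind the hairpins printed above. Aco1 (Entrez gene 11428) serves as a cytosolic aconitase while it holds an iron-sulfur cluster. It was at 41.8, 42.9 and 43.4 TPM in IL and at 37.9, 36 and 36.9 TPM in ILN. The log2 fold change of −0.18 ± 0.035 (SE, edgeR adjusted p = 1.25e-05) was the smallest of the 10. Ireb2 (Entrez gene 64602), whose protein is degraded when iron is plentiful, was at 32.9, 36.6 and 36.2 TPM and at 28.8, 27 and 27.4 TPM. It fell by 0.32 on the log2 scale ± 0.0362 (SE, edgeR adjusted p = 2.96e-11). Both were lower in every ILN library, by an amount that is common here, since 25.1% and 42.3% of all genes tested changed by less than Aco1 and Ireb2.

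Gpx4 (Entrez gene 625249) encodes the selenoenzyme that reduces lipid peroxides in membranes and so holds back ferroptosis, a form of cell death that depends on iron. It was at 952.8, 966.2 and 983 TPM in IL and at 1370, 1432 and 1428 TPM in ILN. All 3 ILN libraries were higher, with a log2 fold change of 0.56 ± 0.028 (SE, edgeR adjusted p = 1.14e-24). Its place by mean TPM among all genes went from 136 to 100.

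**Figure D3:**
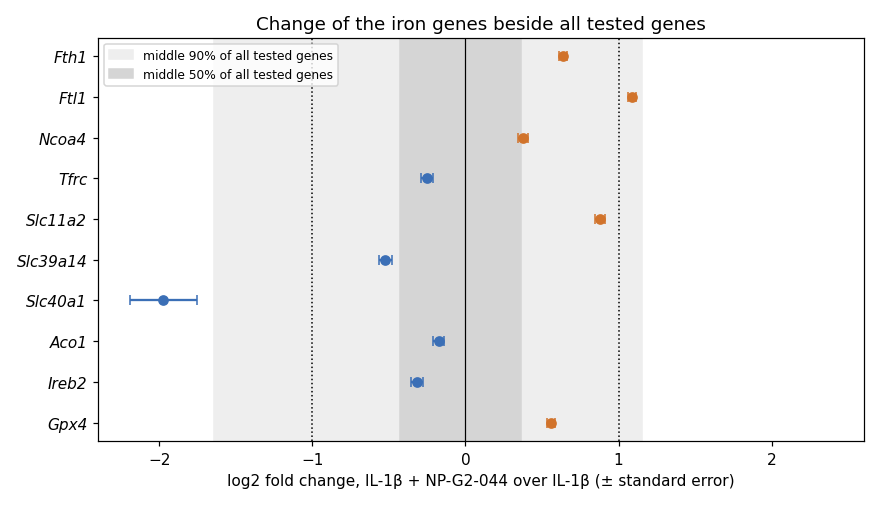
Log2 fold change of each iron gene (points, horizontal axis) with its standard error (bars), orange for higher and blue for lower in ILN, beside the middle 50% and the middle 90% of all 11983 genes tested (dark and light grey). Slc40a1 at −1.97 lies outside the middle 90%, Ftl1 at 1.09 lies near its upper edge of 1.15, and dotted lines mark the cutoff of 1 in size.

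The set spanned a wide range of levels. In order of TPM in IL, the genes ran Fth1, Ftl1, Gpx4, Tfrc, Slc11a2, Ncoa4, Aco1, Ireb2, Slc39a14 and Slc40a1. Ncoa4 and Aco1 were the only neighbours in that order whose libraries overlapped. In ILN the order was Ftl1, Fth1, Gpx4, Slc11a2, Tfrc, Ncoa4, Aco1, Ireb2, Slc39a14 and Slc40a1, and the only neighbours that overlapped were Tfrc, at 54.6 to 63.4 TPM, and Ncoa4, at 53.9 to 55.1 TPM. The genes with a hairpin in the 5′ UTR went in both directions, Fth1 and Ftl1 up and Slc40a1 down. So did those with a hairpin in the 3′ UTR, Slc11a2 up and Tfrc down.

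Promoters were searched for the letters TGACNNNGC, the core of the antioxidant response element, on both strands from 250 bases before to 50 after each RefSeq start site (GRCm38.p6). Windows were found for 7 of the 10 genes, and 1 of these 7, Ncoa4, held the letters, at chr14:32165735-32165763 on the plus strand. The match is in capitals in the following line.
Ncoa4 promoter: aggcggggcgTGACCTGGCcggtagggta
Among all 27025 genes with a window, 3781 (14%) held the letters, so the share in the set, 14.3%, was near that of the rest. The windows of Fth1 and Ftl1 did not hold them, which says nothing of sequence outside these windows.

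Another 104 genes of iron and heme handling in 6 lists, also chosen with earlier results of these data known, place the set in its pathway. Of these, 101 are listed and 88 had enough reads to be tested. By adjusted p in edgeR 42 were higher and 35 lower in ILN, and past both cutoffs 11 were higher and 3 lower. These counts include Scara5 and Steap4, which each passed the filter on low counts through a single group. For all genes the shares called were 80% and 16.6%. The medians of the lists lay between −0.37 and 0.15, against 0.0018 for all genes tested. Within each list up to 4 genes were named by size of change.

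In the list of iron uptake and reduction, 4 of the 10 tested genes were higher and 5 lower at adjusted p below 0.05. That threshold was passed by 80% of all genes tested. Scara5, a receptor that can take up ferritin, averaged 0.213 ± 0.0737 TPM in IL and 2.2 ± 0.0643 TPM in ILN (SD, n = 3 each). It passed the filters on low values only through the ILN libraries, so its value is a description. It rests on 24 reads against 265, a scaled ratio of 10.5 with an exact 95% binomial interval from 6.9 to 16.7 for counting error. The metalloreductase gene Steap1 rose 3.59-fold, from 21 ± 1.7 to 73.8 ± 2.78 TPM, while its relative Steap2 had a log2 fold change of −0.70. Mcoln1, a lysosomal cation channel that can pass iron, rose by 0.81 on the log2 scale. Steap4, named here after its values were seen because it had the largest fall, had 57 reads against 4. It passed the filter on low counts only through the IL libraries, so its value too is a description. Its scaled ratio, IL over ILN, was 15, and its exact 95% binomial interval ran from 5.55 to 56.9.

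Of 9 genes of export and its ligands only 3 could be tested, and the hepcidin gene Hamp is not listed. Cp, which encodes ceruloplasmin, the ferroxidase that works with ferroportin, averaged 30.3 ± 0.187 TPM in IL and 7.37 ± 0.226 TPM in ILN (SD, n = 3 each). It changed by −1.98 ± 0.0515 (SE, edgeR adjusted p = 1.72e-37), beside −1.97 for Slc40a1. Neo1, which encodes a membrane receptor of the bone morphogenetic protein and hepcidin pathway, had a log2 fold change of 0.49 and the copper transporter Atp7a one of −0.24. Heph, another ferroxidase of the list known to pair with ferroportin, had too few reads to be tested, as had Hephl1.

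Of 11 tested genes of iron chaperones, sensing and ferritin turnover, 8 were higher and 3 lower at adjusted p below 0.05, and 0 passed both cutoffs. Over all genes tested the shares were 80% and 16.6%. Fbxl5, the ubiquitin ligase subunit that marks iron regulatory protein 2 for degradation, rose by 0.37 on the log2 scale, from 40.8 ± 0.895 to 51.5 ± 1.21 TPM (SD, n = 3 each, edgeR adjusted p = 1.7e-12), while Skp1, a core subunit of the same class of ligase, had a log2 fold change of −0.73. Bola2, which works with a glutaredoxin in handling iron-sulfur clusters, rose by 0.35, and Pcbp3 had a log2 fold change of −0.51.

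Among heme genes Hmox1 stood out by size. It encodes heme oxygenase 1, which opens the heme ring and releases its iron. Its level was 84, 83.9 and 86.2 TPM in the IL libraries and 758.7, 770 and 763.7 TPM in the ILN libraries. The libraries of each group lay close together, and the log2 fold change was 3.20 ± 0.0323 (SE, edgeR adjusted p = 2.06e-56), or 9.2-fold. Of the 17 tested genes of the list 6 were higher and 8 lower by adjusted p, which called 80% of all genes tested. Cpox, a late enzyme of heme synthesis, had a log2 fold change of 1.45. The porphyrin exporter Abcg2 had a log2 fold change of −1.04.

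In the list of mitochondrial iron and iron-sulfur cluster assembly, 13 of 26 genes were higher, 7 were lower and 6 were not called. The Ciao and Nubp genes and Mms19 of this list belong to cluster assembly in the cytosol. Over all genes tested, 80% were called by adjusted p and 16.6% past both cutoffs, 6.48% higher and 10.1% lower. The 3 genes of this list past both cutoffs were all higher. They were Nfu1, a late-acting cluster carrier, at 1.42 on the log2 scale, the chaperone gene Hspa9 at 1.29 and its co-chaperone gene Hscb at 1.07. Hspa9 averaged 245.6 ± 3.33 TPM in IL and 585.5 ± 7.19 TPM in ILN (SD, n = 3 each, edgeR adjusted p = 1.03e-41). The mitochondrial iron importer Slc25a28 rose by 0.74.

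Genes of lipid peroxide control and ferroptosis went both ways as well, with 10 of 21 higher and 10 lower at adjusted p below 0.05. Over all genes tested, 80% were called by adjusted p and 16.6% past both cutoffs, 6.48% higher and 10.1% lower. The 4 of this list past both cutoffs were all higher. Cyb5r1, an oxidoreductase known to promote lipid peroxidation, rose from 44 ± 0.395 in IL to 379 ± 7.2 TPM in ILN (SD, n = 3 each), by a log2 value of 3.14 ± 0.0354 (SE, edgeR adjusted p = 2.48e-54). Slc7a11 and Slc3a2, which encode the subunits of the cystine importer that feeds glutathione synthesis and so GPX4, had log2 fold changes of 2.21 and 2.16. Gch1, the entry enzyme of tetrahydrobiopterin synthesis, had a log2 fold change of 1.81, from 79 reads to 293. It averaged 0.993 TPM in IL and 3.42 TPM in ILN, so it met the level required for naming only through the ILN libraries. These 4 genes were named for the size of their change, so the rise of Gpx4 by 0.56 cannot be ranked by them. The change of Gpx4 was larger than that of 64.1% of all genes tested.

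**Figure D4:**
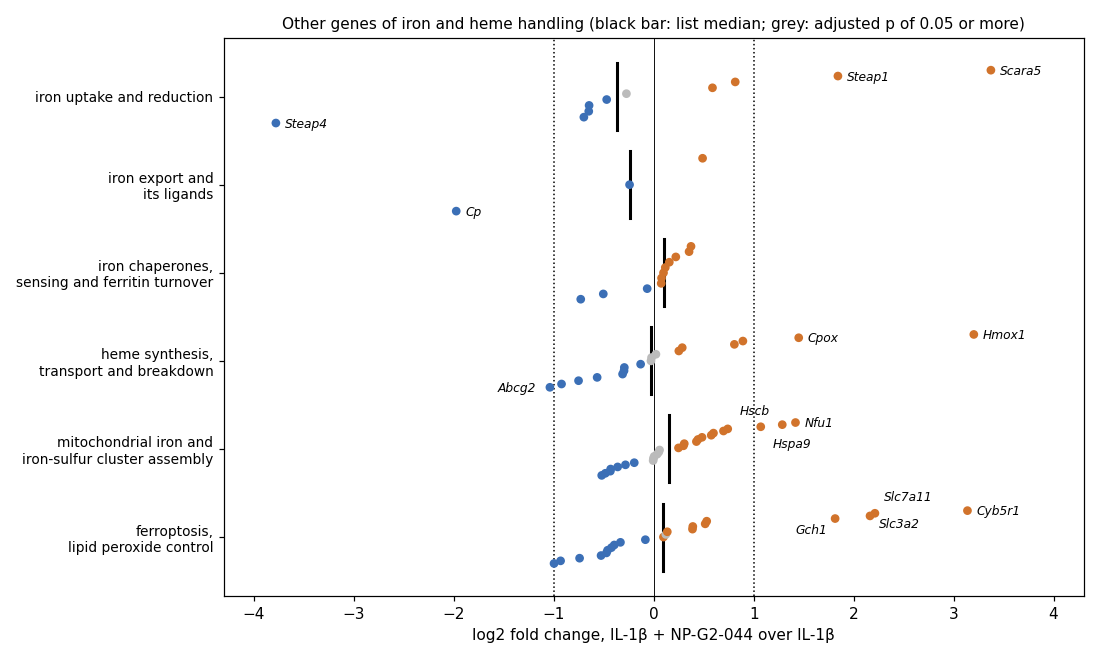
Log2 fold change (horizontal axis) of the 88 tested genes of the 6 lists, 1 point per gene, orange for higher, blue for lower and grey for an adjusted p of 0.05 or more in edgeR's test, with the list median as a black bar. Medians lie between −0.37 and 0.15, and the genes beyond the dotted lines at 1 in size are named, with Hmox1 at 3.20, Scara5 at 3.37 and Steap4 at −3.78 farthest out. Scara5 and Steap4 each passed the filter on low counts through a single group.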

How the data were processed

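Total RNA of the 6 libraries was sequenced and quantified by a commercial provider according to the study's methods. The submitters' processing notes name cutadapt, HISAT2 2.0, StringTie and the build mm10. The sources used here give neither counting settings nor the annotation. The authors deposited estimated counts per gene, which are not normalized and of which 10.17% to 11.06% per library are not whole, and TPM and FPKM per library. Group means of the authors stayed unused.

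For the comparison of 3 ILN with 3 IL libraries, edgeR 4.0.16 (R 4.3.3) was run on rounded counts with filterByExpr (minimum count 10), TMM scaling and a robust quasi-likelihood fit, with no covariate, and Benjamini-Hochberg adjustment covered 11983 genes. A standard error is the log2 fold change over the square root of F. Genes were called at an adjusted p below 0.05, or by both cutoffs, which add a log2 change exceeding 1 in either direction. The common biological coefficient of variation was 2.33%. The precision of low genes is limited by reads, and intervals cover counting error only.

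All 10 members were named. From each further list at most 4 genes were named, those with the largest change among genes with an adjusted p below 0.05, no overlap and a mean of at least 1 TPM in the higher group. The result of 1 gene so chosen is not given. Members and lists were chosen with earlier results of these data known.

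Scripts were tested on simulated data. Alternatives were other scalings, DESeq2 1.42.0, limma 3.58.1 on counts (voom) and on log2 TPM with a pseudocount of 1 or 0.1, other filters, glmTreat, the replicate block and each library left out. FPKM served only as an alternative for the ferritin ratio and share.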

Additional observations from a re-analysis of the deposited data

How the results depend on the processing

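The direction of each of the 10 iron genes held under every alternative that could be fitted, 16 for each gene and 15 for Slc40a1, which a stricter filter (10 CPM or more in 3 or more libraries) removed. Of the 2 genes past both cutoffs, 1 remained under that filter (Ftl1) and 1 with limma on log2(TPM + 1), where Slc40a1 had a log2 fold change of −0.96. That pseudocount shrinks changes of low genes by construction. Ftl1 stayed past both cutoffs under all 16, between 1.06 and 1.10, and Slc40a1 ranged from −2.24 to −0.96. Tested against a fold change of 1.5 with glmTreat of edgeR instead of against no change, 3 of the 10 genes were higher (Fth1, Ftl1 and Slc11a2) and 1 was lower (Slc40a1), where 26.2% of all genes tested were called. In the further lists that test called 16 higher and 10 lower. With each library left out the number of the 10 genes past both cutoffs was 2 throughout. No scaling moved the median of all genes by more than 0.1. Over all genes tested, 776 were higher and 1211 lower past both cutoffs, against 484 and 680 with the stricter filter and 516 and 805 with limma on log2(TPM + 1). By adjusted p alone 9584 were called, against 3143 with glmTreat. Deviations of libraries with the same replicate number correlated at −0.0933, −0.0236 and 0.0259, and those with unlike numbers at −0.107 to 0.129. With 3 libraries per group these values cannot settle whether the numbers pair the libraries. With the replicate block 2 of the 10 genes were past both cutoffs, and no call among the 10 changed. In the further lists 33 genes were then lower at adjusted p below 0.05, against 35. Depth limits genes with few reads, among them Slc40a1, Scara5, Gch1 and Steap4, and 16 genes of the further lists could not be tested.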
